A study of Homo sapiens with 4 samples.

Results

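The Krüppel-like factors are zinc finger transcription factors, and 10 of their genes, KLF2, KLF3, KLF4, KLF5, KLF6, KLF7, KLF9, KLF10, KLF11 and KLF13, were followed here. They were selected by name from a count table of 58037 Ensembl genes: a row was taken when its identifier, without the version, carried one of these symbols. All 10 were found, and all 10 passed the filter on low counts, as did 15718 genes in all. The libraries came from OCI-AML3, an established human AML cell line in which mutation of NPM1 and of DNMT3A is heterozygous and mutation of NRAS homozygous. Both conditions were grown with FBS, in alpha-MEM by the labels and in an RPMI medium by the study's methods. Cells were transfected with a negative control guide (sgNeg in the labels, sgRNA Ctrl below) or with sgNPM1A, a guide directed at mutant NPM1 (mtNPM1), and RNA was taken after 72 hours, that is, on day 3. Each condition had 2 libraries, described as biological replicates. The transfected cells were harvested in bulk, and the share of cells that carried an edit was not measured in these data. The question was which KLF transcripts were altered after editing of mtNPM1.

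KLF proteins share a set of zinc fingers at their C-terminus, which bind GC-rich and CACCC sequences, and differ in the N-terminal part that recruits other proteins. By that part the family is divided into factors that bind the CtBP corepressors (KLF3, KLF8, KLF12), factors that mostly activate transcription (KLF1, KLF2, KLF4, KLF5, KLF6, KLF7) and factors that recruit the SIN3 corepressors (KLF9, KLF10, KLF11, KLF13, KLF14, KLF16). In blood cells, KLF1 drives the erythroid program, KLF4 promotes the monocytic fate, and KLF2 holds lymphocytes in quiescence.

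Total counts lay between 25069484 and 28276391 per library, and a count of 3, taken as the smallest told from 0, corresponds to between 0.106 and 0.120 CPM (counting error only). CPM are counts scaled to a common library size with the TMM method of edgeR. NPM1 itself had 33522 and 35881 counts with sgRNA Ctrl and 33154 and 31428 counts with sgNPM1A, and its log2 fold change was -0.22 (SE, the standard error, 0.07; edgeR adjusted p = 0.0360). This was under the fold used for a call, given below, and limma-trend on quantile-normalized values put it at -0.42 (adjusted p = 0.00108). With the replicate block the adjusted p was 0.156. The counts sum both alleles, so this value does not measure editing. The myeloid surface genes CD33 and PTPRC and the myeloid transcription factor SPI1 were expressed in every library. Of the 9 T cell, erythroid and endothelial markers examined, none had more than 3 counts in any library. The B cell markers CD79A and MS4A1 had at most 6 and 0 counts. The fibroblast and epithelial lists were not silent: COL1A2 (a collagen chain) had 698, 740, 361 and 259 counts and KRT18 (a keratin) 52, 64, 14 and 17 counts in sgRNA Ctrl 1 and 2 and sgNPM1A 1 and 2, and both were called lower with sgNPM1A, as was DCN (decorin) at 13, 15, 5 and 6 counts. The DCN call rested on few reads (edgeR adjusted p = 0.0437), and DESeq2 called 1 of the 2 tested fibroblast genes. COL1A1 had at most 6 counts, CDH1 at most 1 and EPCAM 0. Summed over its 3 markers, the fibroblast list stood at 28.1 and 29.4 CPM with sgRNA Ctrl and at 13.3 and 9.62 CPM with sgNPM1A, and its part in the KLF values was not tested.

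KLF4 rose most among the 10 genes and KLF6 fell. KLF7, KLF9 and KLF10 rose by smaller amounts, KLF11 had an adjusted p just over the threshold, and KLF2, KLF3, KLF5 and KLF13 were not called. A gene was called when edgeR's quasi-likelihood F test gave a Benjamini-Hochberg adjusted p under 0.05, over all tested genes, and a log2 fold change of at least 0.32 in size. By this rule 4 of the 10 genes were higher and 1 was lower, that is, 5 of 10 against 20.8% of all tested genes, 10.5% being higher and 10.3% lower. The median log2 fold change of the 10 genes was 0.20 and that of all tested genes 0.00. The median size of the change, without its sign, was 0.35 against 0.22. In 8 of the 10 genes both sgNPM1A libraries lay on one side of both sgRNA Ctrl libraries, which held for 63.1% of all tested genes. With 2 libraries against 2, an exact permutation test cannot give a two-sided p under 0.333, so the calls rest on the variance that edgeR shares between genes. Labels do not say that the libraries came from separate cultures, and p-values then measure only the spread between these libraries. In RNA from a whole culture, fewer cells that express a gene and less RNA per cell cannot be told apart.

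**Figure D1:**
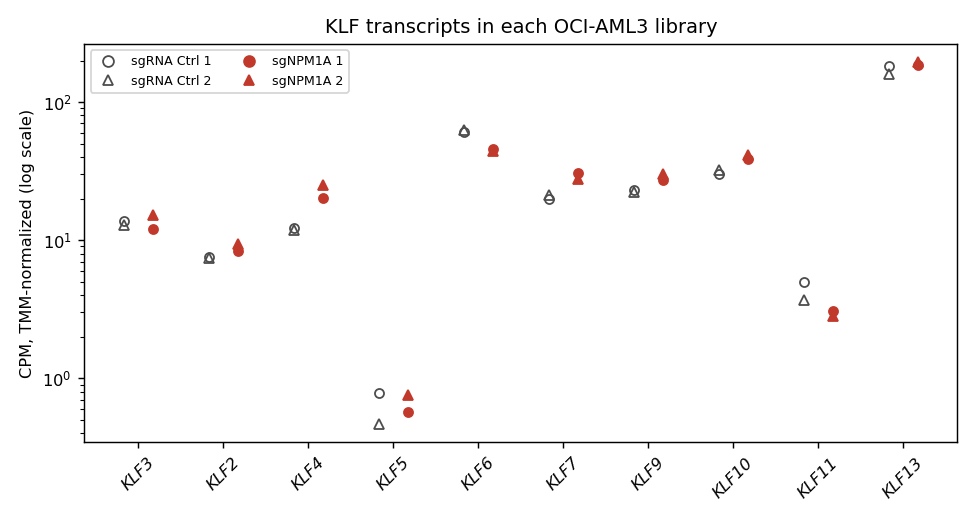
TMM-normalized CPM (log axis) of the 10 KLF genes in each library, ordered by subfamily (KLF3; KLF2 to KLF7; KLF9 to KLF13). Open symbols are sgRNA Ctrl and filled symbols sgNPM1A, circles replicate 1 and triangles replicate 2. KLF4 lies at 12.3 and 11.9 CPM with sgRNA Ctrl and at 20.3 and 24.96 CPM with sgNPM1A, while the symbols of KLF3 and KLF5 overlap between conditions.

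Of the activating subfamily, 5 genes were among those followed: 2 were called higher, 1 lower and 2 were not called. The shares over all tested genes were 10.5% higher and 10.3% lower. KLF4 (ENSG00000136826.14), a zinc finger factor of monocytes and epithelia and a reprogramming factor of pluripotent cells, lies on chromosome 9 of GRCh38 from 107484852 to 107489769. It had 312 and 307 counts with sgRNA Ctrl and 565 and 693 counts with sgNPM1A, or 12.3 and 11.9 against 20.3 and 24.96 CPM. Both sgNPM1A libraries lay far above both controls, and replicate 2 was the higher of them. The log2 fold change was 0.91 (SE 0.12, edgeR adjusted p = 0.000224), a 1.87-fold rise. In size it exceeded the change of 90.8% of tested genes. Mean CPM ± SD were 12.1 ± 0.297 and 22.6 ± 3.32 (n = 2 each). A gene with no symbol overlaps 9.75% of the exon bases of KLF4 in the annotation, but it has no row among the counted genes. Genes with no symbol also overlap 9.06% of the exon bases of KLF11 and 16.3% of those of KLF16. These had 0 counts in every library. Whether the counting used strand is not given in the sources used here.

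The KLF called lower was KLF6 (ENSG00000067082.14), a broadly expressed factor that has been described as a tumor suppressor, on chromosome 10 from 3775996 to 3785209. Its values were 60.8 and 63.2 CPM with sgRNA Ctrl and 45.6 and 44.3 CPM with sgNPM1A (1545 and 1637 against 1272 and 1230 counts). The conditions did not overlap, and replicates differed by less than the distance between them. KLF6 fell by 0.46 on the log2 scale (SE 0.08, edgeR adjusted p = 0.000939), which is 1.38-fold.

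Promoter sequence is shown for KLF4 and KLF6, of the 10 genes the one with the largest rise and the one called lower by the rule above. The estimate for KLF11 was lower than that of KLF6 but was not called, as described below. RefSeq gives a single start for each. The 250 bases before the start are printed 5′ to 3′ on the strand of the gene, which is the minus strand in both cases, with GGGCGG boxes (either strand, so also CCGCCC) and the E-box CACGTG in capitals. They lie at chr9:107489770-107490019 for KLF4 and chr10:3785210-3785459 for KLF6, in GRCh38.p14.

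KLF4: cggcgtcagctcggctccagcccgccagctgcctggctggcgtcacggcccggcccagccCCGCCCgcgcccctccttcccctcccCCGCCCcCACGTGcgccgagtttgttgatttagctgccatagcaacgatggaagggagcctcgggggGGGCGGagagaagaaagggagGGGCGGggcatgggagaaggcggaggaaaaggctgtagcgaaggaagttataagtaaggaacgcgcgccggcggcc

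KLF6: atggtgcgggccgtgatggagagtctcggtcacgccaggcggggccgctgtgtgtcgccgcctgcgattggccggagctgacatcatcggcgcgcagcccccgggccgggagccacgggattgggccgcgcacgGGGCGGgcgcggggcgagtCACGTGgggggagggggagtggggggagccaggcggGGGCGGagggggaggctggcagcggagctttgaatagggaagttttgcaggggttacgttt

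The KLF4 window holds 4 GGGCGG boxes and the KLF6 window 2, and each holds 1 CACGTG, the core to which MYC and its relatives bind. GGGCGG was found in 42.6% of the 35116 promoter windows of the same length in the table, CACGTG in 6.34% and both together in 3.54%. KLF4 and KLF6 thus hold both motifs and moved in opposite directions. CACCC (or GGGTG), the other sequence that KLF proteins bind, was in neither window, against 54.7% of all windows. The joint share was computed after the matches had been seen. TGACGTCA, CTATTTAT, TGACAG, TGATTTAT and GTCTAGAC were also searched on both strands and were absent from both windows. Windows were used for 8 of the 10 genes. Among these, the only window of KLF9 was poor in GC (32.4%, against a median of 58.0% over all windows) and held none of the motifs, while those of KLF2 and KLF13 had 80.0% and 78.8% GC with 4 and 3 GGGCGG boxes. A window of KLF11, at chr2:10043579-10043828, also held GGGCGG and CACGTG together, with 2 and 1 matches. Another KLF11 window, at chr2:10043971-10044220, held 6 and 0. A match of letters is a description and not evidence of binding.

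KLF7 (ENSG00000118263.14), known for its part in neuronal development, lies on chromosome 2 from 207074137 to 207173851. It was measured at 19.7 and 21.4 CPM in the control libraries and at 30.5 and 27.9 CPM in the sgNPM1A libraries. Every sgNPM1A value was above every control value, and the log2 fold change was 0.51 (SE 0.09, edgeR adjusted p = 0.00240), or 1.42-fold. The transcripts KLF7-IT1, KLF2-DT and KLF3-AS1, named after members of the family, had at most 15 counts in any library and were not tested.

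The rest of the activating subfamily was not called. KLF2 (ENSG00000127528.5), the quiescence factor of T cells and of endothelium under flow, had 7.55 and 7.37 CPM with sgRNA Ctrl and 8.29 and 9.36 CPM with sgNPM1A. Both sgNPM1A values were higher, but the log2 fold change of 0.24 had a 95% interval from -0.05 to 0.53 and an edgeR adjusted p of 0.207. KLF5 (ENSG00000102554.13), a factor of proliferating epithelia, was barely transcribed, with 20 and 12 counts against 16 and 21 counts. Its values overlapped between conditions, and the 95% interval of its log2 fold change, from -0.76 to 0.94, leaves changes of nearly the size seen for KLF4 in either direction undetectable at this depth.

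The SIN3-recruiting subfamily supplied 4 of the 10 genes, of which 2 were called higher and 0 lower by edgeR. Over all tested genes these shares were 10.5% and 10.3%. KLF10 (ENSG00000155090.14), the TGF-beta inducible early gene TIEG1, lies on chromosome 8. It had 30.3 and 32.2 CPM with sgRNA Ctrl and 38.9 and 41.6 CPM with sgNPM1A, without overlap. The log2 fold change was 0.37 (SE 0.08, edgeR adjusted p = 0.00831), a rise of 1.29-fold. Without sgNPM1A replicate 2 the log2 fold change of KLF10 was 0.32 and its adjusted p from edgeR 0.119, so the call was lost.

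KLF9 (ENSG00000119138.4), which is induced by glucocorticoids and thyroid hormone, lies on chromosome 9 from 70384604 to 70414657. It went from 23.2 and 22.4 CPM with sgRNA Ctrl to 27.4 and 30.2 CPM with sgNPM1A. The sgNPM1A libraries were higher in both replicates, and the log2 fold change was 0.34 (SE 0.09, edgeR adjusted p = 0.0184). At 1.27-fold the change was close to the fold threshold, which it missed with scaling by library size only (log2 fold change 0.30), without sgRNA Ctrl replicate 2 (0.32) and without sgNPM1A replicate 2 (0.27, adjusted p = 0.236).

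KLF11 (ENSG00000172059.10), or TIEG2, is the nearest relative of KLF10 and lies on chromosome 2 from 10043550 to 10054836. It had 127 and 96 counts with sgRNA Ctrl and 85 and 78 counts with sgNPM1A, or 4.996 and 3.71 against 3.05 and 2.81 CPM. The sgNPM1A values were both lower, and the control libraries differed from each other by more than the lower of them differed from sgNPM1A. Its log2 fold change was -0.57 (SE 0.19, 95% interval from -0.997 to -0.14), and its edgeR adjusted p was 0.0519. The adjusted p was 0.0453 in the fit blocked on replicate number and 0.0392 under scaling by library size only, so its side of the threshold depends on the fit. DESeq2 gave 0.174. Without sgRNA Ctrl replicate 2 the log2 fold change was -0.77 (adjusted p = 0.0175), and without sgRNA Ctrl replicate 1 it was -0.34 (adjusted p = 0.271). Within a library, where scaling cancels, the ratio of KLF10 to KLF11 in CPM per kilobase was 7.28 and 10.4 with sgRNA Ctrl and 15.3 and 17.8 with sgNPM1A. This pair was chosen after its values had been seen.

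KLF13 (ENSG00000169926.10), which was identified as an activator of CCL5 in T cells, lies on chromosome 15 from 31326835 to 31435665. It had the highest CPM of the 10 genes, 182.6 and 158.9 with sgRNA Ctrl and 184.3 and 194.9 with sgNPM1A. The lowest sgNPM1A value exceeded the highest control value by a small margin, and the log2 fold change of 0.15 (95% interval from -0.02 to 0.32, edgeR adjusted p = 0.181) did not pass the test. KLF3 (ENSG00000109787.12), a repressor that works with CtBP and the only CtBP-binding gene among the 10, had 13.7 and 12.9 CPM with sgRNA Ctrl and 12.1 and 15.3 CPM with sgNPM1A. The sgNPM1A libraries fell on either side of the controls, with a log2 fold change of 0.04 (95% interval from -0.25 to 0.32).

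The other genes of the family were read from the same fit. Of 8 further KLF genes 4 were tested, of which 2 were called higher and 0 lower (10.5% and 10.3% of all tested genes). KLF15, a metabolic regulator induced by glucocorticoids, rose from 9.48 and 10.3 to 14.3 and 16.2 CPM, and the log2 fold change was 0.63 (SE 0.12, edgeR adjusted p = 0.00257). KLF1, the erythroid factor, had 14 and 12 counts in the controls against 29 and 29 with sgNPM1A, and the log2 fold change was 1.03 (SE 0.33, edgeR adjusted p = 0.0396). That call rests on few reads: DESeq2 gave an adjusted p of 0.247, and it was lost in each of the 4 fits that left out a library. KLF12 (log2 fold change -0.15, 95% interval from -0.46 to 0.17) and KLF16 (-0.04, from -0.18 to 0.11) were not called. KLF8, KLF17 and KLF18 had 0 counts in all libraries, which at this depth allows a level of up to the 3 counts given above, and KLF14 had at most 1 count. The SP genes encode the closest relatives of the KLF proteins. SP1, SP2, SP3 and SP4 were tested, with log2 fold changes of 0.04, -0.16, -0.12 and 0.05. None was called by edgeR, DESeq2 or limma-trend, and 0 of the 4 had an unadjusted p under 0.05 with edgeR. SP3 had 55.04 and 41.5 CPM with sgRNA Ctrl and 40.4 and 48.4 CPM with sgNPM1A, and the conditions overlapped.

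**Figure D2:**
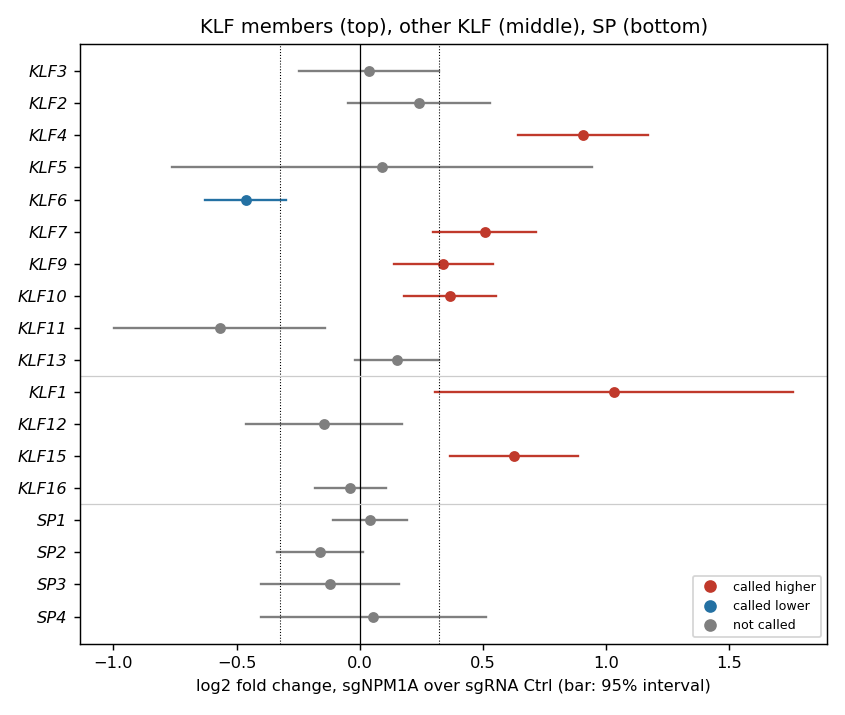
Log2 fold change of sgNPM1A over sgRNA Ctrl from edgeR for the 10 KLF genes (top), the other tested KLF genes (middle) and the tested SP genes (bottom). Points are estimates, bars 95% intervals, dotted lines a log2 fold change of 0.32 in size, red called higher, blue called lower and grey not called. KLF4 (0.91) and KLF6 (-0.46) stand on opposite sides of 0, and the intervals of the 4 SP genes all span 0.

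Levels of different genes were compared per kilobase of merged exons. In the sgRNA Ctrl libraries KLF13 was the most abundant of the 10 genes, at 18.1 CPM per kilobase, followed by KLF6 (10.1), KLF10 (8.17), KLF9 (4.38), KLF4 (3.29), KLF2 (2.65), KLF7 (2.14), KLF3 (1.97), KLF11 (0.947) and KLF5 (0.17). No neighbours in this order overlapped in their library values. With sgNPM1A the order was KLF13 (20.1), KLF10 (10.5), KLF6 (7.32), KLF4 (6.18), KLF9 (5.54), KLF2 (3.13), KLF7 (3.04), KLF3 (2.02), KLF11 (0.638) and KLF5 (0.181). KLF10 and KLF6 thus exchanged places, and so did KLF4 and KLF9, although KLF4 and KLF9 overlapped within sgNPM1A, as did KLF2 and KLF7. The ratio of KLF6 to KLF4, in CPM per kilobase within a library, was 2.95 and 3.18 with sgRNA Ctrl and 1.34 and 1.06 with sgNPM1A. This pair, too, was chosen after its values were seen. KLF16, outside the 10, was the most abundant KLF gene in every library, with between 38.7% and 44.97% of the summed level of all KLF genes per kilobase. The 10 genes together made up between 50.6% and 55.1% of that sum. Their own sum was 53.0 and 50.8 CPM per kilobase with sgRNA Ctrl and 56.7 and 60.7 with sgNPM1A.

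**Figure D3:**
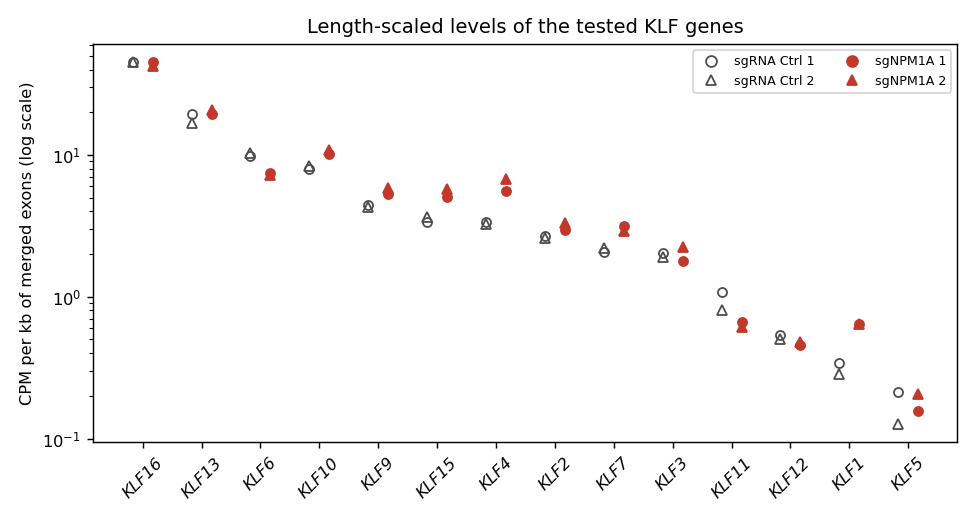
CPM per kilobase of merged exons (log axis) of the 14 tested KLF genes in each library, ordered by the mean of the sgRNA Ctrl libraries. Open symbols are sgRNA Ctrl, filled symbols sgNPM1A, circles replicate 1 and triangles replicate 2. KLF16 leads in all 4 libraries, and KLF4 moves from 3.29 to 6.18 on average while KLF6 moves from 10.1 to 7.32.

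Genes that work with KLF factors were taken from lists of upstream pathways, cofactors, ubiquitin ligases and targets, and were counted in the same fit. For comparison, 10.5% of all tested genes were called higher and 10.3% lower. Of the kinases and MEF2 factors of the ERK5 pathway, which induces KLF2 and KLF4, 7 of 8 were tested and 1 was called. That gene was MEF2C, which fell to 26.6 ± 2.62 CPM from 76.0 ± 2.83 in the controls (SD, n = 2), and the log2 fold change was -1.51 (SE 0.09, edgeR adjusted p = 5.10e-07). The other tested genes, MAPK7 (ERK5 itself), MAP2K5, MAP3K2, MAP3K3, MEF2A and MEF2D, were not called. Of the TGF-beta pathway, which induces KLF10 and KLF11, 3 of 7 genes fell and 0 rose. TGFBR1 and TGFBR2, the receptor chains, had log2 fold changes of -0.99 and -0.41 (edgeR adjusted p = 3.99e-06 and 0.00582), and SMAD7, the inhibitory SMAD, had -1.12 (adjusted p = 2.33e-05). TGFBR2 missed the fold threshold without sgRNA Ctrl replicate 1, at -0.32, and had an adjusted p of 0.0517 without sgNPM1A replicate 1. SMAD2, SMAD3, SMAD4 and TGFB1 were not called, and the median log2 fold change of the list was -0.28. SMAD4 itself had -0.28 with an edgeR adjusted p of 0.0416, short of the fold threshold. Of the glucocorticoid response, which includes KLF9 and KLF15, 4 genes were tested. The receptor NR3C1 fell by 0.49 on the log2 scale (edgeR adjusted p = 0.000780). FKBP5 rose by 0.36 (edgeR adjusted p = 0.0291), and the other 2 were not called. The rise of FKBP5 was not called with DESeq2 (0.0743), with the replicate block (0.0580), with scaling by library size only, where the fold was too small, or in 3 of the 4 fits without a library.

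No cofactor of KLF proteins on the list was called. Of CTBP1, CTBP2, FHL3, SIN3A, SIN3B, EP300, CREBBP and KAT2B, none was called by edgeR, DESeq2 or limma-trend, while 3 had an unadjusted p under 0.05 with edgeR and 1 was called with the replicate block. The median log2 fold change of these 8 was -0.15. CTBP2 and CREBBP each had an edgeR adjusted p under 0.05 (0.0274 and 0.0213) at log2 fold changes of -0.28, short of the fold threshold. Among 6 ubiquitin ligases known to act on KLF proteins (WWP1, FBXW7, SMURF1, SIAH1, ITCH and VHL), 0 were called by edgeR, DESeq2 or limma-trend and 1 had an unadjusted p under 0.05 with edgeR. This was WWP1, which acts on KLF2 and KLF5 (log2 fold change -0.28, edgeR adjusted p = 0.0473).

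Genes described elsewhere as targets of a KLF factor moved in both directions. Of 15 listed, 12 were tested, 3 rose, 5 fell and 4 were not called. Among all tested genes 10.5% were called higher and 10.3% lower. CDKN1A, the inhibitor p21 that KLF4 and KLF6 activate, rose to 124.6 ± 6.06 CPM from 63.0 ± 1.58 in the controls (SD, n = 2), that is, by 0.98 on the log2 scale (edgeR adjusted p = 2.81e-06). LGALS3, a lectin gene repressed by KLF3, rose by 0.94 (edgeR adjusted p = 0.000191) and the integrin gene ITGB7 by 1.20 (adjusted p = 0.00103). THBD, the endothelial thrombomodulin induced by KLF2, had a log2 fold change of -0.75 (edgeR adjusted p = 2.27e-05), and CCL5, the chemokine gene named above for KLF13, had -0.67 (adjusted p = 0.000866). CCND1 had -0.76 and ENG -0.66 (edgeR adjusted p = 8.32e-05 and 0.000245), and SMAD7, which KLF10 represses, is on this list as well. S1PR1 and NOS3, targets of KLF2 in lymphocytes or endothelium, had at most 3 counts in any library. The median over the 12 tested targets was -0.04.

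Markers of myeloid cells moved in the same libraries as KLF4, KLF6 and KLF7. Of 9 such markers 6 were called higher and 0 lower, against 10.5% and 10.3% of all tested genes. Their median log2 fold change was 0.49. LYZ (lysozyme) went from 6879 and 5571 counts to 73664 and 93496 counts, a log2 fold change of 3.63 (edgeR adjusted p = 3.94e-08). ITGAM, the gene of CD11b, had 19 and 21 counts with sgRNA Ctrl and 98 and 121 counts with sgNPM1A. CD14, which is both a monocyte marker and a listed KLF4 target, had a log2 fold change of 0.34 and an edgeR adjusted p of 0.0557. MPO, ANPEP, SPI1 and CSF3R were the others called higher, and CD33 and PTPRC were not called. The summed level of the 9 markers was 1168 and 1164 CPM with sgRNA Ctrl and 3942 and 4677 CPM with sgNPM1A. Without LYZ it was 897.1 and 949.1 against 1300.0 and 1310.0 CPM, and none of the 9 was at 0. The part of these shifts in the changes of the KLF genes was not tested.

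**Figure D4:**
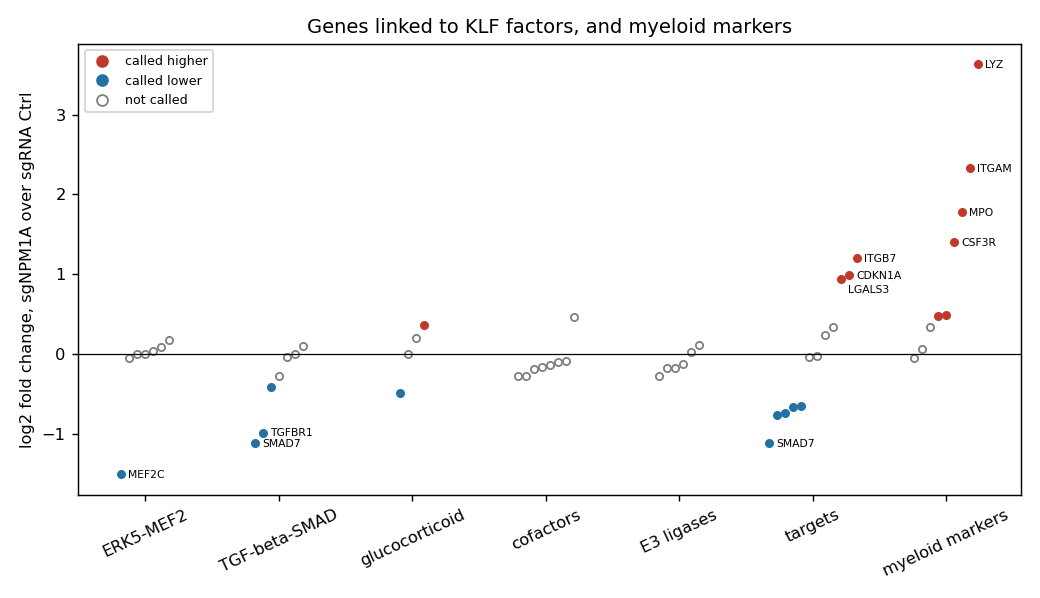
Log2 fold change of sgNPM1A over sgRNA Ctrl from edgeR for each tested gene of the lists linked to KLF factors and of the myeloid markers. Filled red points were called higher, filled blue points lower, and open points were not called, with names where the change exceeds 0.9 in size. MEF2C (-1.51) stands apart in its list, the 3 called genes of the TGF-beta pathway lie below 0, and 6 of the 9 myeloid markers were called higher.

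KLF4, KLF6 and KLF7 were called in every one of the 12 other fits at the same fold threshold, with log2 fold changes from 0.75 to 1.05, from -0.50 to -0.43 and from 0.44 to 0.57. KLF2 lay between 0.15 and 0.33 and KLF13 between 0.06 and 0.26 in the same fits, without a call in any. KLF3, from -0.14 to 0.20, and KLF5, from -0.24 to 0.52, changed sign between fits. KLF11 lay between -0.77 and -0.34. Its smallest adjusted p, 0.00644 with edgeR, came from a crossed replicate block. That fit pairs replicate 1 of each condition with replicate 2 of the other and was added after the data were seen. In the planned fits of all 4 libraries its adjusted p ran from 0.0191 (edgeR, no filter on low counts) to 0.174 (DESeq2).

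**Figure D5:**
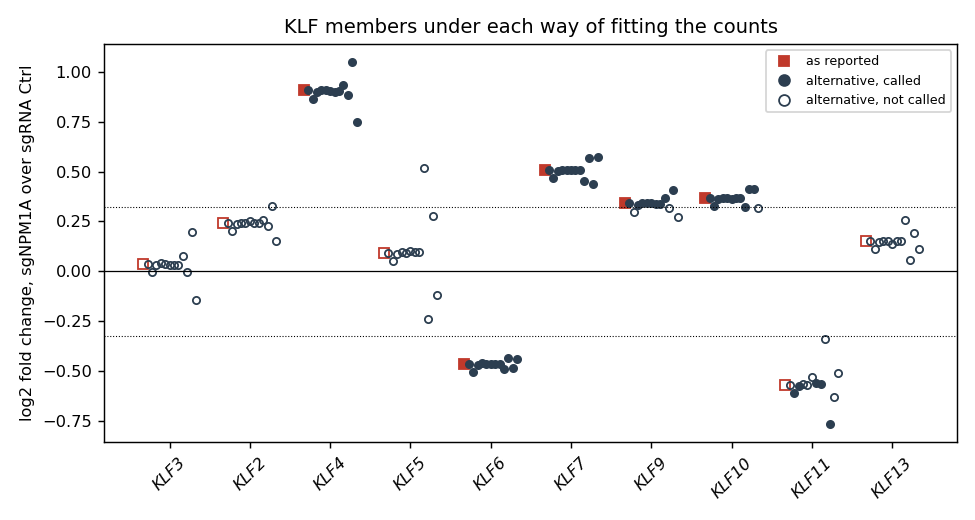
Log2 fold change of sgNPM1A over sgRNA Ctrl of the 10 KLF genes as reported (squares) and under 12 other fits of the same counts (circles, filled where the gene was called). Dotted lines mark a log2 fold change of 0.32 in size. The crossed replicate block, among the 12, was added after the data were seen. The circles of KLF4, KLF6 and KLF7 are filled throughout, and those of KLF11 are filled in some fits and open in others.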

How the data were processed

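The authors aligned read pairs to hg38 (STAR, Samtools). What they deposited are raw counts for each Ensembl gene, with 1 column for each of the 4 libraries. The counting program, its use of strand and the annotation release are not given in the sources used here. Libraries were made with ERCC spike-ins, but 0 rows carry an ERCC name, so scaling relied on the genes. Symbols were matched by identifier for 55646 of 58037 rows.

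The counts were analysed with edgeR 4.0.16 in R 4.3.3 (filterByExpr with a minimum count of 10, TMM, robust dispersions, two-sided quasi-likelihood F test, Benjamini-Hochberg adjustment over 15718 genes). The standard error is the size of the log2 fold change over the square root of F, and the 95% interval uses its t quantile. Exon lengths and exon overlaps between genes came from the GENCODE annotation supplied for GRCh37. Positions and promoters came from RefSeq on GRCh38.p14, and no GRCh37 coordinate is printed. Alternatives were DESeq2 1.42.0, limma-trend (limma 3.58.1) on quantile-normalized log2 CPM, RLE factors, library size only, other count filters, no fold threshold, a fold of 2, each library left out, the longest transcript as length, and the replicate number as a block. Neither labels nor methods say that the number marks a shared culture.

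The members and lists were chosen with earlier results of these data known. Named are the 10 genes, the tested KLF and SP genes, genes of the lists that were called or have a role tied to a member, and NPM1. Protein sequences were not used here, and single values of 2 listed genes are not reported here.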

Additional observations from a re-analysis of the deposited data

How the results depend on the processing

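With a fold change of at least 2 in place of the threshold used, 0 KLF members were called higher and 0 lower, against 498 and 502 of all tested genes. KLF members called lower numbered 2, KLF6 and KLF11, with library size only, with no filter on low counts, under the replicate block and under the crossed replicate block. Leaving out each library in turn gave between 2 and 4 KLF members called higher and between 1 and 2 called lower. The 2 came without sgNPM1A replicate 2 (KLF4 and KLF7 higher) and without sgRNA Ctrl replicate 2 (KLF6 and KLF11 lower). Over all tested genes, the fits without a library called between 1239 and 1632 higher and between 1179 and 1617 lower, library size only 1433 and 1947, and no filter 1787 and 1849. Fits without a library assume that the lone library of a condition varies like the other group. KLF3 had a log2 fold change of -0.0031 with library size only. Without 1 library, values crossed 0 for KLF3 (-0.14 to 0.20), KLF5 (-0.24 to 0.52), KLF16 (-0.078 to 0.0011), SP1 (-0.0067 to 0.092), SP3 (-0.31 to 0.10) and SP4 (-0.21 to 0.37), none of which was called. The cause was not tested. With the longest transcript as length, all 10 members kept their place in the order of sgRNA Ctrl and 8 that of sgNPM1A, KLF2 and KLF7 trading places.

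Same-numbered libraries deviated in opposite directions (correlation across genes of -0.130, and -0.523 over the 8856 genes above 10 CPM), so a crossed block was added after the data were seen. No label says that a number marks a shared culture or day. The replicate block changed no call among the 10 members other than that of KLF11. It called 1637 genes higher and 1604 lower, the crossed block 1955 and 1918, against 1653 and 1619 without one. Depth limits KLF5 and KLF1, both under 30 counts in every library.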
